A study of Tetradesmus deserticola with 10 samples.

Results

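Among the transcripts of the desert green alga Tetradesmus deserticola (Acutodesmus deserticola in the submitters' naming), strain Sni-2, 84 assembled genes had a mean level late in drying within 0.5 to 2 times the starting level, were nearly gone from dry cells, and were still far below that level 1 h after water was returned. They were 84 of 20783 assembled genes, and 84 of the 2904 that held at least 300 counts over the 10 libraries. The genes were chosen by measured values. In the authors' deposited expression signal, the higher Dry library had to be at most 0.125 times the lowest of the 6 Hydrated, Early and Late libraries. The Late mean had to lie between 0.5 and 2 times the Hydrated mean, and the Rehydrated mean below 0.25 times the Hydrated mean. The choice depends on the scaling. With counts divided by library totals in place of this signal, 61 of the 84 met the limits on Late. The limit on Dry was met by 83, that on Rehydrated by 74, and all limits by 54. All levels and folds that these limits touch (Dry against the 3 earlier stages, Late against Hydrated, Rehydrated against Hydrated) are therefore given as a description, without a test.

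All groups were cultured cells of this strain, spotted as drops of 40 µL on cover glasses. Hydrated drops were taken at once, Early drops at 2.5 h and a volume loss of 25%, Late drops at 7.5 h and a volume loss of 60%, Dry spots at about 24 h, of which the last 11 h were spent dry in the chamber, and Rehydrated spots 1 h after rewetting. Each stage had 2 libraries, which the labels do not tie to separate cultures, so that p-values measure the spread between these libraries and it may be technical. The samples included no drops that stayed wet over this time, so that drying, rewetting and elapsed time cannot be told apart.

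Green algae of desert crusts lose most of their cell water within hours, stop photosynthesis and growth while dry, and take up metabolism again after rewetting. In desiccation-tolerant plants and algae, the RNA pool of dry cells is known to hold transcripts that were made or kept during drying, while others are degraded or no longer made. Which transcripts a dry cell has lost, and how soon it makes them again, bears on how soon normal growth can return. No name is paired with an identifier in the files, so the 84 genes are given by assembly identifier, without function, position or sequence, and no list of pathway genes could be matched to them. In these bulk samples, fewer cells that carry a transcript and less of it per cell cannot be told apart.

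Libraries held between 644705 counts (Rehydrated replicate 1) and 1917825 counts (Hydrated replicate 1), and both Rehydrated libraries were the shallowest. Libraries of a stage differed by more than counting noise in all 5 stages (chi-square per degree of freedom between 10.9 and 42.0). Each was kept as a separate library, although such an excess cannot show whether they are technical repeats. TMM factors ran from 0.403 in a Dry library to 1.99 in a Rehydrated library.

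As a share of all counts, which scales each library by its total, the 84 genes together took 1.41% and 1.33% in the Hydrated libraries. They took 1.54% and 1.19% in the Early libraries, 1.09% and 0.713% in the Late libraries, 0.0170% and 0.0199% in Dry, and 0.181% and 0.140% in Rehydrated. The Dry shares were the lowest, the Rehydrated shares stood between those of Dry and those of the 3 earlier stages, with no overlap between these levels. In the deposited signal, which is corrected for gene length, the median of the 84 genes was 65.5 and 67.0 in the Hydrated libraries, 78.5 and 95.3 in the Early libraries, 67.9 and 61.8 in the Late libraries, 1.81 and 1.83 in Dry, and 6.22 and 7.64 in Rehydrated. The mean signal of a gene over the 6 libraries before dryness ran from 11.6 to 538, with a median of 75.7. For all 2904 genes with the count minimum that median was 37.9.

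**Figure D1:**
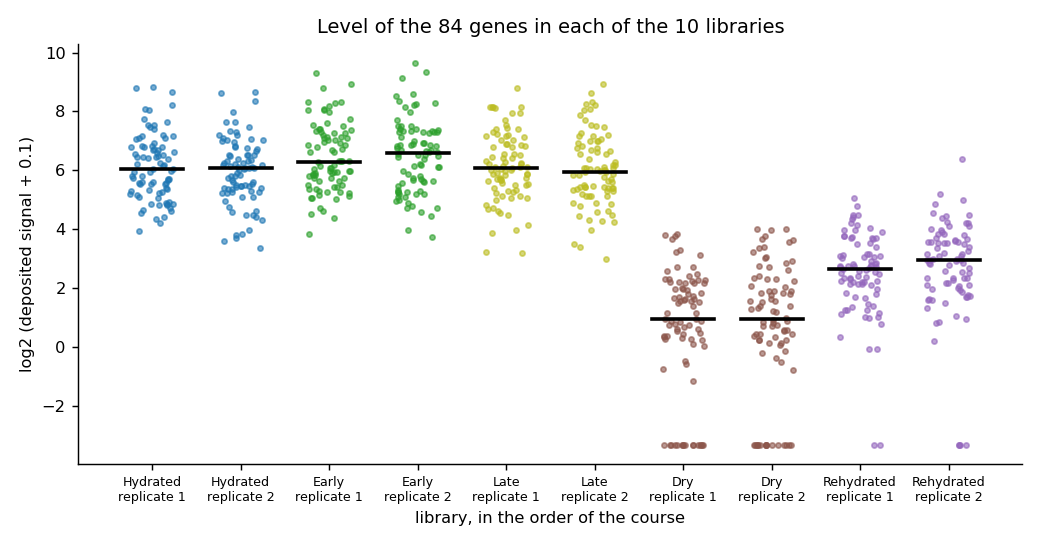
Each point is the level of 1 of the 84 genes in 1 library, as log2 of the deposited signal plus 0.1, and the black bar is the median of the library; points on the lowest line had 0 counts. The 6 libraries before dryness have median signals between 61.8 and 95.3, those of Dry 1.81 and 1.83, and those of Rehydrated 6.22 and 7.64.

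The most abundant of the 84 was TRINITY_DN179551_c3_g1, with a signal of 460 and 403 in the Hydrated libraries, 627 and 800 in Early, 448 and 493 in Late, 4.8 and 11.6 in Dry, and 15.7 and 31.3 in Rehydrated. Its 2 Rehydrated libraries lay above both Dry libraries and below all 6 earlier ones. TRINITY_DN185502_c14_g1, the next most abundant, had a signal of 407 and 392 in Hydrated, 488 and 642 in Early, 282 and 318 in Late, 1.62 and 12.6 in Dry, and 5.83 and 10.1 in Rehydrated. Here the Rehydrated libraries fell inside the range of the Dry libraries, at 6 and 8 counts against 1 and 8.

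Dry cells held so few of these transcripts that single genes were measured there with very few reads. A gene of the 84 had a median of 2 counts in each Dry library, with a range of 0 to 15 in replicate 1 and 0 to 21 in replicate 2, and all 84 together had 247.1 and 317.2 counts. The same genes had medians of 198 and 148 counts in the Hydrated libraries. In each Dry library 16 of the 84 genes had 0 counts, and 4 had 0 in both. A further 33 had between 1 and 3 counts in the 2 Dry libraries together. The median log2 fold change of Dry against Hydrated was -4.33 in edgeR's fit with TMM scaling, and -4.26 with the 4 genes at 0 set to the limit that 3 counts per library allow. The median over all 9856 genes tested was -0.52.

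The 4 genes with 0 counts in both Dry libraries are named here because their number is small; they were singled out after their values were seen. TRINITY_DN149146_c0_g1 had 0 and 0 counts in Dry against 228 and 93.2 in Hydrated, lower by at least 13.7-fold with TMM scaling and by at least 47-fold with library totals. TRINITY_DN179836_c4_g1 had 0 and 0 counts in Dry against 140 and 148 in Hydrated, lower by at least 13.1-fold with TMM scaling. For TRINITY_DN179783_c3_g2 and TRINITY_DN185580_c0_g1 the limits were lower, at least 5.93-fold and at least 5.88-fold. Counts of 3 of the 4 genes were not whole in between 4 and 8 libraries, so part of their reads was divided among assembled genes; TRINITY_DN179836_c4_g1 was whole in all libraries.

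After 1 h of rewetting the 84 genes spread over a wide range below their starting level. The ratio of mean signal, Rehydrated over Hydrated, had a median of 0.107 and quartiles of 0.0668 and 0.174; 12 genes were below 0.05, 38 below 0.1 and 70 below 0.2. The median log2 fold change of Rehydrated against Hydrated was -3.05, against -0.03 over all genes tested. With library totals in place of the deposited signal, the median ratio was 0.125 and the highest 0.386, and 74 of the 84 genes were still below 0.25. All 84 were below 1 with library totals, and in the deposited signal the rule itself requires this.

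**Figure D2:**
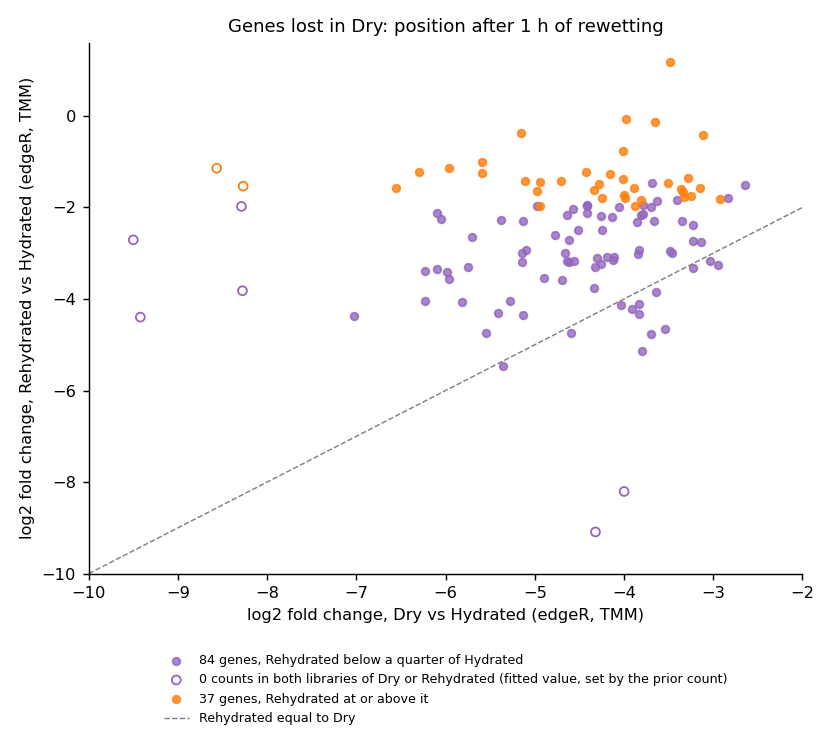
Each point is a gene that met the limits on counts, Dry and Late, placed by its log2 fold change in Dry vs Hydrated (horizontal) and in Rehydrated vs Hydrated (vertical), from edgeR with TMM scaling. Purple points are the 84 genes (medians -4.33 and -3.05) and orange points the 37 genes that failed only the limit on Rehydrated (medians -4.01 and -1.47); open points had 0 counts in both libraries of Dry or of Rehydrated, and points above the dashed line are higher in Rehydrated than in Dry.

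The rule limits the levels of Rehydrated and Dry from above and picks genes for very low values in Dry, which favours higher values in Rehydrated. The calls in Rehydrated vs Dry are therefore given as a description of these genes, and nothing is read from their number beside that of all genes. In Rehydrated vs Dry, 25 of the 84 genes rose and none fell in edgeR's quasi-likelihood test at an adjusted p of 0.05 (29.8%). Among all 9856 genes tested, 7.23% rose and 13.5% fell. At an unadjusted p under 0.05, 40 of the 84 genes were higher and 1 was lower. The matching number over all genes was not counted. DESeq2 called 17 of the 84 higher and none lower, against 318 higher and 1226 lower among all 9856. The median log2 fold change of the 84 was 1.51, or 1.41 over 80 genes with those at 0 in either stage set to their limits and 4 left out whose levels were at or under the limit in both stages. The median over all genes tested was 0.45.

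The number of genes that rose depends on scaling and on single libraries. Library totals in place of TMM gave 74 of the 84 genes as higher, but also 5870 of all 9856 genes tested. They move the median of all genes to 2.28. Scaling moves the 84 and all genes nearly alike, so the distance between their medians is hardly touched by it. That distance was 1.06 on the log2 scale with all libraries and TMM, 0.696 without Rehydrated replicate 2 and 1.63 with only these 2 stages in the fit, the lowest and highest over the alternatives. In every fit without 1 library, fewer of the 84 were called, and fewer of all genes tested were called higher as well. Without Rehydrated replicate 2, not all of the 84 that were called were higher. Without Dry replicate 1, Dry replicate 2 or Rehydrated replicate 2, the median log2 fold change of the 84 was 1.49, 1.47 and 1.31. The medians over all genes tested were then 0.58, 0.71 and 0.61.

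**Figure D3:**
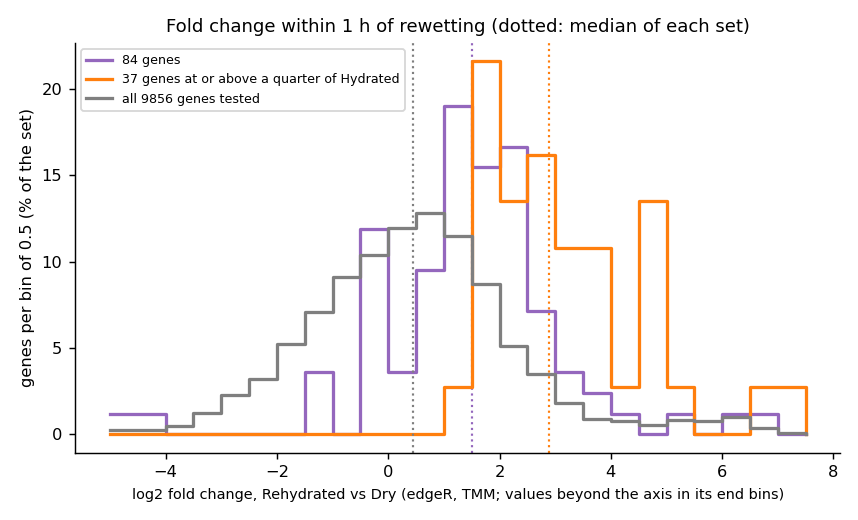
The lines give the percentage of genes in each 0.5-wide bin of the log2 fold change, Rehydrated vs Dry, for the 84 genes, for the 37 genes lost in Dry but at or above 0.25 times Hydrated after rewetting, and for all 9856 genes tested; dotted lines mark the medians of 1.51, 2.89 and 0.45. Positive values are higher in Rehydrated, and the 84 genes lie between the other sets.

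TRINITY_DN182450_c2_g1 and TRINITY_DN179760_c3_g1 had the most Rehydrated counts among the genes that rose and were picked for this after their values were seen. TRINITY_DN182450_c2_g1 had 63 and 62 counts in Rehydrated against 5 and 4 in Dry, and 1019 and 759 in Hydrated. Its signal was 13.1 and 16 in Rehydrated, against 1.73 and 1.26 in Dry, with no overlap, and its log2 fold change was 3.05 (SE 0.504, adjusted p = 0.000149 in edgeR; between 2.19e-06 and 0.0123 over its alternatives). TRINITY_DN179760_c3_g1 had 93 and 155 counts in Rehydrated against 15 and 21 in Dry, and 1520 and 1100 in Hydrated. Its log2 fold change was 2.08 (SE 0.461, adjusted p = 0.00236 in edgeR), 3.86 under library totals and 1.31 (adjusted p = 0.0447 in edgeR) without Rehydrated replicate 2, and without Dry replicate 1 the call was lost at an adjusted p of 0.114, the highest over its alternatives. After 1 h the mean signal of these genes stood at 0.141 and 0.199 times the Hydrated mean.

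The largest fitted rises belonged to genes that had no counts in Dry, so that their size is set by the model. TRINITY_DN149146_c0_g1 had 13 and 8.31 counts in Rehydrated against 0 and 0 in Dry, a rise of at least 2.11-fold with TMM scaling and of at least 7.66-fold with library totals (adjusted p = 0.00356 in edgeR; between 9.74e-05 and 0.0406 over its alternatives). TRINITY_DN179783_c3_g2 had 9.75 and 5.09 counts in Rehydrated against 0 and 0 in Dry, a rise of at least 1.46-fold with TMM scaling and of at least 5.39-fold with library totals (adjusted p = 0.011 in edgeR). Its call was lost without Dry replicate 1, Dry replicate 2 or Rehydrated replicate 1, at adjusted p of 0.0961, 0.0844 and 0.0587 (as low as 0.000245 over its other alternatives). The fitted folds of these genes are not printed, since they depend on the prior count.

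The 25 genes that rose and the 59 that did not pass the test are split by the outcome of this same comparison, so higher Rehydrated counts and ratios in the 25 follow from the split and are a description. The 25 genes had a median of 37 counts in the 2 Rehydrated libraries together (14.8 to 248), against 16 (0 to 82) for the other 59. Both had a median of 4 counts in the 2 Dry libraries together. The ratio of mean signal, Rehydrated over Hydrated, had a median of 0.176 (0.0428 to 0.25) in the 25 and 0.0928 (0 to 0.247) in the 59. On simulated counts for this comparison with 9856 genes, the same test found 2% of the genes made to differ 2-fold, 36% at 4-fold and 76% at 8-fold. The altered genes were drawn from all 9856, at their mean level over the 10 libraries. These shares are therefore not those for the 59 genes at their low counts in Dry. With a median of 4 counts there, a rise of a few fold in the 59 genes could have been missed.

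At the other end, 7 of the 84 genes had a lower mean signal in Rehydrated than in Dry, and none of these differences passed the test. With edgeR's own scaling, 15 genes had a fitted fold change below 0. TRINITY_DN178305_c2_g1 had 0 and 0 counts in Rehydrated and 1 and 2 counts in Dry, against 147 and 89 in Hydrated, which is at least 17.1-fold lower in Rehydrated than in Hydrated. TRINITY_DN182852_c5_g1 had 0 and 0 counts in Rehydrated and 2 and 0 counts in Dry, against 60 and 63.8 in Hydrated, at least 9.29-fold lower in Rehydrated than in Hydrated. These were the only 2 of the 84 with no count in either Rehydrated library, and they were named after their values were seen. Among those 7 genes, TRINITY_DN178305_c5_g4 was measured with the most counts in Dry. It had a signal of 267 and 252 in Hydrated, 266 and 326 in Early, 248 and 301 in Late, 13.9 and 15.9 in Dry, and 6.07 and 11.5 in Rehydrated. Its Rehydrated libraries held 7 and 11 counts and its Dry libraries 11 and 12.

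**Figure D4:**
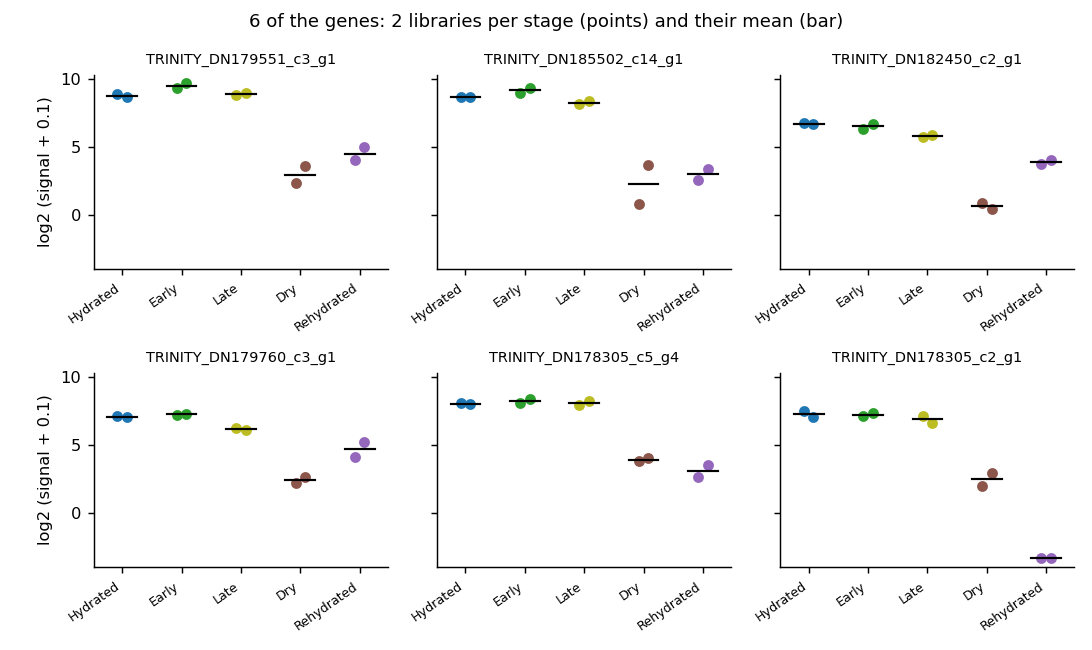
Log2 of the deposited signal plus 0.1 (vertical) in the 5 stages (horizontal), with 1 point per library and a bar at the stage mean, for the 2 most abundant of the 84 genes, for the 2 with the most Rehydrated counts among those that rose, and for the 2 that share the assembly number DN178305. In the first 4 panels the Rehydrated mean lies above the Dry mean, and in the DN178305 panels it lies below.

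Some of the 84 identifiers share the number that the assembler gives to a cluster of related sequences. The 84 genes came from 79 such clusters, and 5 clusters held 2 of them each, so these 10 genes may be pieces or relatives of the same gene and are not independent. TRINITY_DN186626_c4_g1 and TRINITY_DN186626_c5_g1 had ratios of Rehydrated to Hydrated mean signal of 0.0704 and 0.0838, and both rose in Rehydrated vs Dry. TRINITY_DN184657_c3_g1 and TRINITY_DN184657_c4_g1 stood at 0.0334 and 0.0428, and the second of them rose in Rehydrated vs Dry (adjusted p = 0.00369 in edgeR) while the first did not pass the test (adjusted p = 0.395). TRINITY_DN182852_c6_g1 stood at 0.0484 and had 2.64 times its Dry mean signal in Rehydrated, while TRINITY_DN182852_c5_g1 was at 0 in Rehydrated; neither passed the test. The partners of DN178305 were both lower in mean signal in Rehydrated than in Dry. TRINITY_DN177299_c7_g1 and TRINITY_DN177299_c7_g4 stood at 0.0906 and 0.215, and the second of them rose in Rehydrated vs Dry while the first did not pass the test. Differences between the partners of a cluster were not tested.

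Before dryness, the rule fixed only how Late compared with Hydrated, and it left Early free apart from the lower limit that Dry sets. The Early mean signal was the highest of the 5 stages in 64 of the 84 genes, the Hydrated mean in 12 and the Late mean in 8. The ratio of mean signal, Early over Hydrated, had a median of 1.41 and ran from 0.70 to 2.74. Its median was 1.13 over the genes with the count minimum and 1.16 over the 37 genes that failed only the limit on Rehydrated. Early lay above both Hydrated and Late in 64 of the 84 genes (76.2%), against 796 (39.9%) of the 1995 genes that had the count minimum and the same limits on Late. With library totals these numbers were 39 of the 84 genes and 535 of the 1995. The 1995 genes carry no limit on Dry, which excludes genes low in Early, so part of this gap follows from the choice. Among the 37 genes that also met the Dry limit but failed that on Rehydrated, the share was 54.1%, and 11 of the 37 with library totals.

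In the deposited signal, both Early libraries lay above both Hydrated libraries in 49 of the 84 genes (58.3%), and below both in 6. Over all genes tested, which were not held to the count minimum, the percentages were 23.6% and 30.3%. Of the 2904 genes with the count minimum, 1086 lay above and 720 below. Of the 37 genes that failed only the limit on Rehydrated, 37.8% lay above and 10.8% below. Both Late libraries lay below both Early libraries in 48 genes (57.1%), against 21.6% over all genes tested, and above both in 1, against 18.6%. Of the 2904 genes with the count minimum, 755 lay below and 623 above, and of the 37 genes 35.1% and 10.8%. These comparisons share the Early libraries. Few single genes passed the test, however. In Early vs Hydrated 2 of the 84 genes rose (2.38%), against 2.33% of all genes tested, and none fell, against 2.73%. At an unadjusted p under 0.05 in edgeR, 21 were higher and 0 lower with TMM scaling, but 0 higher and 3 lower with library totals. DESeq2 called none of the 84, against 166 higher and 135 lower among all genes tested. In Late vs Early 1 gene fell (1.19%), against 1.15% of all genes tested, and none rose, against 0.294%. At an unadjusted p under 0.05 in edgeR, 13 of the 84 were lower and 0 higher with TMM scaling, and 19 lower and 0 higher with library totals. DESeq2 called none of the 84, against 47 higher and 98 lower among all genes tested. The shares called at an adjusted p of 0.05 in edgeR were near the background. At the unadjusted p, the matching numbers over all genes were not counted. On simulated counts for Early vs Hydrated the test found 0% of the genes made to differ 2-fold and 70% of those made to differ 4-fold. The altered genes were again drawn from all genes tested, so these shares are not those for the 84.

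The median log2 fold change of the 84 genes in Early vs Hydrated was 0.51 under TMM and -0.02 under library totals, while the median of all genes tested was -0.07 and -0.59. The distance of the 84 from all genes, which scaling hardly touches, was 0.577 under TMM and between 0.484 and 0.908 over the alternatives. All genes tested were not held to the count minimum. Genes that were had a median Early to Hydrated ratio of mean signal of 1.13, against 1.41 in the 84. In Late vs Early the median was -0.24 under TMM and -0.44 under library totals, against 0 and -0.22 over all genes tested.

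**Figure D5:**
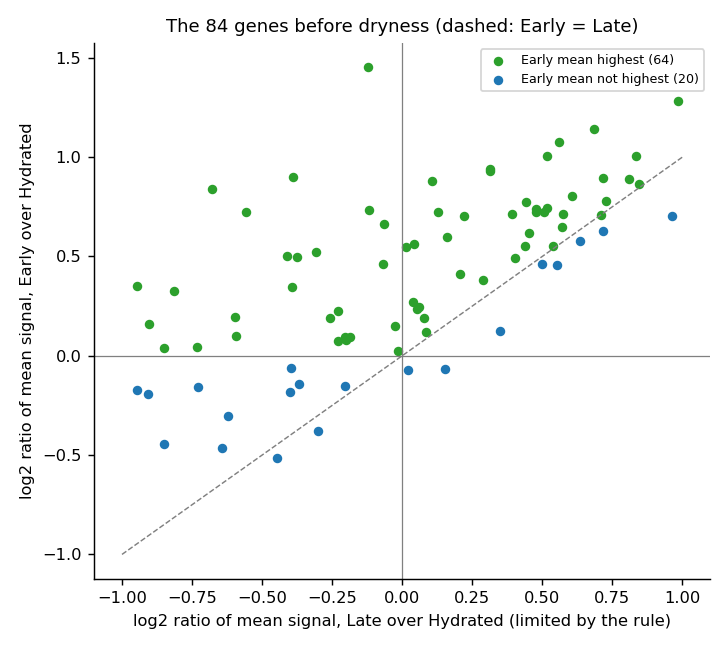
Each point is 1 of the 84 genes, placed by the log2 ratio of mean deposited signal of Late over Hydrated (horizontal, limited by the rule) and of Early over Hydrated (vertical); the dashed line marks equal Early and Late means. In the 64 genes in green the Early mean is the highest, and in the 20 in blue it is not.

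The 2 genes that rose in Early were TRINITY_DN181148_c9_g2 and TRINITY_DN186449_c2_g1. TRINITY_DN181148_c9_g2 had a signal of 62.6 and 68.3 in Early, against 35.7 and 12.1 in Hydrated, and its log2 fold change was 1.48 (SE 0.384, adjusted p = 0.0269 in edgeR; between 0.00133 and 0.517 over its alternatives). Its Hydrated libraries differed widely: the log2 fold change came to 0.94 when Hydrated replicate 2 was left out and to 2.55 when replicate 1 was. The call was lost without Hydrated replicate 2 or either Early library, and 8 libraries had counts of this gene that were not whole. TRINITY_DN186449_c2_g1 had a signal of 39.0 and 36.6 in Early, against 18.2 and 12.9 in Hydrated (log2 fold change 1.27, SE 0.336, adjusted p = 0.0299 in edgeR; between 0.012 and 0.734 over its alternatives). Its call was lost on leaving out either Hydrated library, either Early library or Late replicate 1. The gene that fell in Late vs Early was TRINITY_DN179783_c3_g2, with a signal of 63.7 and 43.3 in Late, against 186 and 121 in Early (log2 fold change -1.56, SE 0.394, adjusted p = 0.0495 in edgeR; between 0.0104 and 0.511 over its alternatives). Its call was lost without Early replicate 1 or either Late library, and all 3 calls were lost under library totals and with DESeq2.

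The 37 genes that met the limits on counts, Dry and Late but were at or above 0.25 times Hydrated after rewetting are the set most like the 84, which made up 69.4% of the 121 genes lost in Dry in this way. The sets were split by their Rehydrated level, so their difference in Rehydrated vs Dry follows in part from the choice: 25 of 84 genes rose, against 31 of 37, with median log2 fold changes of 1.51 and 2.89. The split divides the Rehydrated level by the Hydrated level, so the levels before dryness enter it through Hydrated and are given as a description. The mean signal over the 6 libraries before dryness had a median of 75.7 in the 84 genes and 37.9 in the 37 genes. Early lay above both Hydrated and Late in 76.2% of the 84 genes and in 54.1% of the 37. Counts that were not whole in at least 1 library occurred in 16 of the 84 genes (19.0%) and in 3 of the 37 (8.11%), against 21.2% of all genes with the count minimum. The median relative length (counts per unit of signal, set to 1 for the median gene with at least 10 counts in each library) was 1.06 in the 84 genes and 1.35 in the 37, against 1.14 for the 2904 genes. None of these differences between the sets was tested.

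The limits cut through a continuous range of genes. TRINITY_DN175416_c1_g3 was the member nearest to the limit on Dry, with a Dry maximum 0.124 times its lowest earlier library (signal 1.70 and 3.61 in Dry, against 46.1 and 42.3 in Hydrated). TRINITY_DN182179_c5_g3, at 0.125 after rounding, was just outside it (2.46 and 7.16 in Dry, against 91.2 and 63.8 in Hydrated). At the limit on Rehydrated, the nearest genes stood at 0.2496 inside and 0.2504 outside. At the limits on Late they stood at 0.519 and 1.98 inside and at 0.466 and 2.16 outside.

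The rule was also applied to the libraries of a single replicate number, with a minimum of 150 counts, and the other libraries were read for the genes so chosen. Of 159 genes chosen in the replicate 1 libraries, 112 met the Dry limit, 142 the Late limits and 104 the Rehydrated limit in the replicate 2 libraries, and 73 met all of them. Of 114 genes chosen in the replicate 2 libraries, 85, 95 and 98 met these limits in the replicate 1 libraries, and 64 met all. In the libraries not used, the median ratio of Rehydrated to Hydrated signal was 0.17 and 0.0973. For comparison, with all libraries 150 of the 2904 genes with the count minimum met the Dry limit and 1995 the Late limits. The lower quartile of their Rehydrated to Hydrated ratio was 0.303. Libraries of a stage may be technical repeats, so these numbers are a description and not independent support.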

How the data were processed

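The authors deposited expected counts per assembled gene, not normalized, and TMM-normalized expression signal for the same 20783 genes; the sources used here do not give the length-corrected unit (TPM or FPKM) that TMM was applied to. The submitters' processing notes list RSEM 1.2.28, which estimates counts, Bowtie2 2.2, Trimmomatic 0.35, CASAVA 1.4 and also DESeq2, without their roles or order. RSEM divides a read that matches several genes, so some counts are not whole.

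Columns were matched to sample titles by number and time code (prefix Sdes for Ades). Stages came from the stage label and replicate numbers from the titles. The 84 genes, the named genes and the tests were chosen with earlier results of these data known.

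Expected counts were rounded, filtered with filterByExpr (minimum count 10; 9856 genes, 98.3% of counts, all 84 members kept), scaled with TMM and tested with edgeR 4.0.16 (R 4.3.3; quasi-likelihood, a term per stage, 10 libraries, 5 residual degrees of freedom). Calls were made at a Benjamini-Hochberg adjusted p of 0.05 over all genes tested. Alternatives used DESeq2 1.42.0 and limma 3.58.1. Genes named were the 2 of highest signal, up to 2 called in each direction per comparison, and the neighbours of the Dry limit; others are marked as chosen after their values were seen. The fit was tested on simulated data in which 50 genes were altered at each fold size. They were drawn from all genes tested, set at their mean level over the 10 libraries, and raised or lowered at random. For stages at 0, folds were bounded with 3 counts per library (between 1.07 and 4.70 CPM), which covers counting error only.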

Additional observations from a re-analysis of the deposited data

How the results depend on the processing

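By depth alone the Rehydrated libraries are the most limited: with library totals, 3 counts are 4.65 and 3.63 CPM there and 2.06 and 1.88 CPM in Dry. Under TMM, 3 counts are 4.41 and 4.70 CPM in Dry, where the TMM factors of 0.471 and 0.403 raise the limit. The rule gave 84 genes. It gave 135 with a minimum of 100 counts, 37 with 1000, 111 with library totals (54 of them among the 84), 60 with CPM from edgeR's TMM factors (58 among the 84), and between 75 and 119 when a library was left out. Chosen after the data were seen, the rule gave 159 genes in the replicate 1 libraries alone and 114 in the replicate 2 libraries alone.

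In Rehydrated vs Dry 25 of the 84 genes were called. The number was 74 with library totals, 38 with limma on log2 of the signal plus 1, 34 and 27 with 0.1 added (with and without the count filter), 24 with DESeq2 size factors, 17 with DESeq2 and between 7 and 21 without a library. The median log2 fold change of 1.51 was 3.34 with library totals, 2.05 with both fits on the signal plus 0.1, 1.97 with only these 2 stages (48 genes kept by the filter) and between 1.31 and 1.51 without a library. The limma fits each called 1 of the 84 genes lower. Among all genes tested, library totals called 5870 higher and 221 lower, and limma with 1 added 1466 and 1001. Limma with 0.1 added called 1043 and 883 with the count filter, and 1183 and 732 of 20783 without it. DESeq2 size factors gave 642 and 1378, and DESeq2 318 and 1226. Without a library, fewer of all genes tested were called higher than with all libraries.

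In Early vs Hydrated 2 genes were called, against 0 with library totals, DESeq2 and the 3 limma fits, 1 without the count filter, 1 among genes whole in every library, 4 with only these stages and between 0 and 3 without a library. The median of 0.51 was -0.0238 with library totals and between 0.47 and 0.62 without a library. In Late vs Early 1 gene was called, against 0 with library totals, DESeq2, the 3 limma fits and among genes whole in every library, 2 without the count filter and between 0 and 3 without a library; the median of -0.24 was -0.44 with library totals and between -0.40 and -0.24 without a library.

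Same-numbered libraries shared little: their deviations from the stage means correlated between -0.0815 and 0.149. With the replicate number as a block, 2, 3 and 27 of the 84 genes were called in Early vs Hydrated, Late vs Early and Rehydrated vs Dry. Among all 9856 genes tested, the block gave 316 higher and 329 lower, 38 and 151, and 718 and 1412. Leaving out a library leaves its stage with 1, which is assumed to vary like the others, and the count filter then keeps between 10729 and 13985 genes. The cause of these differences was not tested.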
